A study of Homo sapiens with 8 samples.

Results

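The olfactory receptor genes of chromosome 11 were examined for SMAD3 occupancy in A549 cells, a human lung alveolar epithelial carcinoma line. The members were the array probes on chromosome 11 annotated to a gene symbol of the olfactory receptor pattern (OR, a family number, a subfamily letter and a gene number). No measured value entered that choice. The rule gave 147 genes and 3607 probes of 17258 gene units and 474392 mapped probes. All member probes lay on slide 2 of the 2-slide promoter design, so each member rested on 4 arrays. Chromatin was immunoprecipitated with an antibody to SMAD3 (SMAD3 IP, labelled with Cy5) or with an anti-FLAG antibody as a control (mock IP, labelled with Cy3), and both products were hybridised to the same array after ligation-mediated PCR. The unstimulated control cells and the cells stimulated with 2 ng/ml TGFβ1 each had 2 replicates, which the labels call biological. The labels give the exposure only as up to 2 h, and the text of the study describes a shorter exposure within that limit for the arrays. All cells were serum-starved before use. Both conditions came from 1 cell line with no genetic change, so the antibody and the ligand were the only planned differences. The labels do not say that the replicates were separate cultures, so p-values measure the spread between these samples, which may be technical. The arrays measured immunoprecipitated DNA and held no RNA levels, so neither the cell type nor the silence of the receptor genes could be checked here. All 8 arrays of the series were scanned on 1 day.

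Olfactory receptors are G-protein-coupled receptors that bind odorants on the cilia of olfactory sensory neurons. Each neuron expresses a single allele of a single receptor gene, and the remaining copies are kept in compact heterochromatin. The genes have a coding region without introns and stand in large clusters, of which chromosome 11 carries the greatest number in the human genome. Class I receptors (families 51, 52 and 56 here) are the group first described in fish and lie in a single cluster around the beta-globin genes, and class II receptors make up the other families. SMAD3 is the intracellular transducer that enters the nucleus after TGFβ receptor activation and binds the SMAD box, AGAC on one strand and GTCT on the other, in the DNA of its targets.

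Of the 147 members, 118 had an entry among the RefSeq promoters of the GRCh38.p14 build, from which the 250 bases before the transcript start were taken. These windows were poor in G and C. The median GC content was 36.8%, against 58.0% over 35116 promoters of the same length, and the median number of CpG dinucleotides was 1 against 11. No CpG was found in 36.4% of member windows and in 6.06% of all windows. The 4 motifs below were counted on both strands. The SMAD box, AGAC or on the other strand GTCT, was present in 102 of 118 member windows (86.4%) and in 77.5% of all windows. The longer CAGAC, or GTCTG on the other strand, each copy of which also holds the SMAD box, was present in 28.8% of member windows and 38.0% of all. GTCT followed directly by AGAC, which is its own complement, was present in none of the 118 and in 0.182% of all. The GC-rich GGCGC, or GCGCC on the other strand, was present in 1.69% of member windows and in 44.5% of all. Such matches describe the letters of the window only. The array files did not name the build of their annotated starts, and in 54 of the 118 current RefSeq models (45.8%) the transcript began at the start codon, so the window and the annotated start of the array need not coincide.

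The upstream windows of 3 members are shown because probes described below would lie in or beside them if the annotated starts coincide. At OR6A2 a run of 4 probes across the start was bright in the mock IP of unstimulated cells, at OR52W1 a probe 34 bp downstream was among the highest of the member probes bright in both channels on all 4 arrays, and at OR51S1, the member with the lowest mean, a probe 122 bp upstream was below -1.8 on all 4 arrays. The windows are written 5′ to 3′ along the gene, with every AGAC or GTCT in capitals. OR6A2 (chr11:6799690-6799939, minus strand) and OR52W1 (chr11:6198974-6199223, plus strand) held 2 SMAD boxes each and OR51S1 (chr11:4849209-4849458, minus strand) held 0. In the models of OR52W1 and OR51S1 the transcript began at the start codon, so these windows need not be promoters. OR52D1 and OR6X1, described below, had no entry in the promoter table.
OR6A2: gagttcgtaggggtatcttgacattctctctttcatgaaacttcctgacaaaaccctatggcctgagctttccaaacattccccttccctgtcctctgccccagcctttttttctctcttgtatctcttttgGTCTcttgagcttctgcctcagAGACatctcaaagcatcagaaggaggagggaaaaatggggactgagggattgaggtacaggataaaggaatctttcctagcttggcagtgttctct
OR52W1: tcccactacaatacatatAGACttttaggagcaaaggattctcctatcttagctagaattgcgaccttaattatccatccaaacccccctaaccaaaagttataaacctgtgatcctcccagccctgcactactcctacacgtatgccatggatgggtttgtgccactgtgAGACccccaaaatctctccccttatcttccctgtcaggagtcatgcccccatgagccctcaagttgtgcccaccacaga
OR51S1: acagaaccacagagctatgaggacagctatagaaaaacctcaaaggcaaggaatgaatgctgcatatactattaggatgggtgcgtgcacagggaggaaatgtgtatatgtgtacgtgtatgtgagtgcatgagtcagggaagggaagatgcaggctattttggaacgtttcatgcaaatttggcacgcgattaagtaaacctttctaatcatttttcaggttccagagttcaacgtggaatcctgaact

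Most member probes gave no signal that could be told from background in either precipitate. The scanner software marked 22.7% to 24.8% of the 3603 member probes as well above background in the mock IP, compared with 58.2% to 60.8% of all probes on the slide. In the SMAD3 IP the range was 16.1% to 17.0% for the members and 50.1% to 54.4% for the slide. On each array both channels were well above background for at most 13.6% of member probes, and 1982 member probes were not well above background in either channel on any array. Olfactory receptor probes on other chromosomes were similarly dim, with 25.0% to 28.4% well above background in the mock IP. Only 218 member probes were well above background in both channels on all 4 arrays, that is 6.05% of them against 38.6% of the slide. OR10G9, OR4A5, OR4C46 and OR52A4 had no probe well above background on any array. OR52A4 is the only member listed as a pseudogene in RefSeq.

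The probes that did give signal were not spread evenly over the gene. In the mock IP, signal well above background was found at a mean of 55.2% of the member probes from 251 to 800 bp downstream of the annotated start, against 29.7% within 250 bp of the start and 18.7% from 251 to 3000 bp upstream. The same windows held 42.7%, 21.6% and 12.7% in the SMAD3 IP. Over all probes of the slide the highest share was instead within 250 bp of the start, with 84.1% in the mock IP and 80.5% in the SMAD3 IP. The stretch with most signal in the members would be in the coding exon if that exon opens near the annotated start, which was not checked. Receptor genes resemble each other most in their coding exons, and the part of shared sequence in this signal was not tested because the probe sequences were not among the columns used here.

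**Figure D1:**
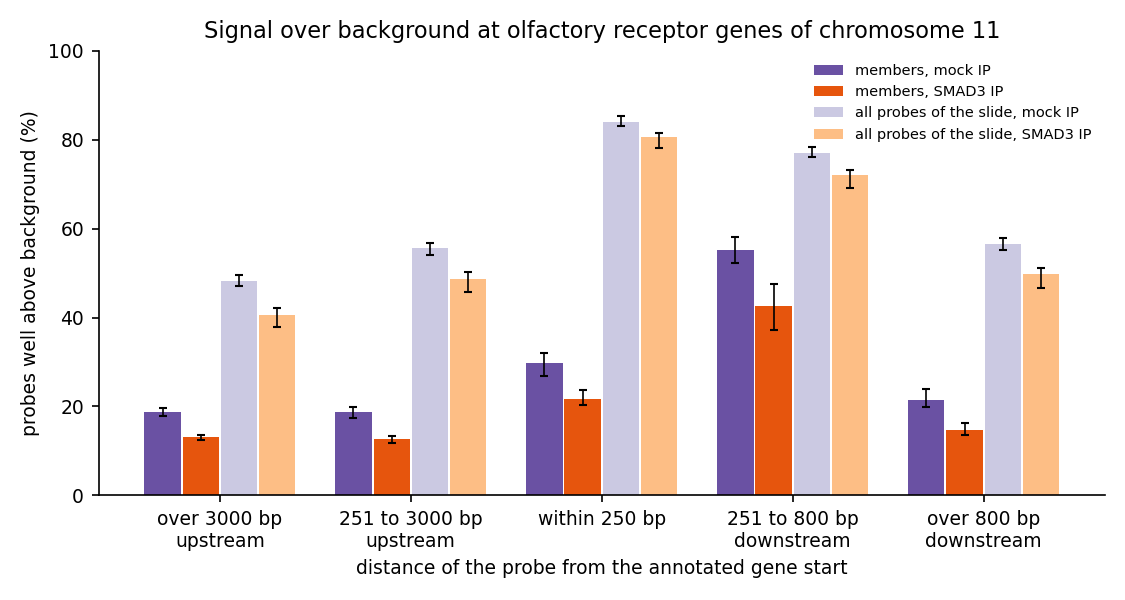
Share of probes well above background (y axis, %) in 5 windows of distance from the annotated start (x axis), for member probes (dark bars) and for all probes of slide 2 (light bars), in the mock IP (purple) and the SMAD3 IP (orange). Bars are the mean of 4 arrays and lines the lowest and highest array; member probes reach their highest share, 55.2% in the mock IP, from 251 to 800 bp downstream, whereas the slide peaks within 250 bp of the start.

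The level of a gene was taken as the mean log2 ratio of SMAD3 IP over mock IP over all its probes, after each array was centred on its median. A gene needed 4 probes to be tested, which left 142 members. OR10G9, OR4A47 and OR4C46 with 1 probe, OR4A5 with 2 and OR4C13 with 3 were not tested. OR4C13 had log2 ratios of -0.02 and -0.04 in unstimulated cells and -0.41 and -0.44 after TGFβ1, and the other 4 stayed between -0.02 and 0.19 on every array. The 142 tested members lay close to the array median. Their median log2 ratio was -0.15 and -0.19 in the unstimulated replicates and -0.10 and -0.17 in the stimulated replicates, and that of all gene units ran from -0.20 to -0.32. Below 0 in both replicates were 102 members (71.8%) in unstimulated cells and 99 (69.7%) after TGFβ1, against 70.2% and 73.9% of all gene units. A condition mean beyond 1 on the log2 scale, in either direction, was found in 9 members (6.34%) and in 18.5% of all gene units.

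The order of the members was kept between replicates and not between conditions. Across the 142 members the log2 ratios of the unstimulated replicates correlated with r = 0.95 and those of the stimulated replicates with r = 0.90. Between an unstimulated and a stimulated replicate the coefficient was 0.11 to 0.19, and over all 16954 gene units it was 0.28 to 0.29. These are descriptions across genes, which are not independent replicates and which share arrays and probe sets. Single probes were compared by detection. Of the member probes well above background in the mock IP of unstimulated replicate 1, 76.2% were so in replicate 2 (93.0% over the slide). Of those well above background in both unstimulated replicates, 64.7% were so in both stimulated replicates (86.6% over the slide). These shares are unlike measures, since the first needs 1 further array and the second needs both stimulated arrays. Of those in stimulated replicate 1, 74.1% were so in stimulated replicate 2 (92.6% over the slide). Of the 624 member probes in both unstimulated replicates, 134 were so in neither stimulated replicate. Detection of single probes was thus partly kept between conditions.

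After TGFβ1, the log2 ratio was higher in 25 members and lower in 21 by limma with an adjusted p under 0.05, and 96 did not pass. These are 17.6% and 14.8% of the 142 tested, and across all gene units 20.9% were higher and 28.7% lower. In this main setting the members were thus called at a rate below the background. The median change was 0.50 among the members that rose and -0.56 among those that fell. Over all 142 members the median change was -0.01, and over all gene units it was -0.05. The call depended on how the array was processed. With only probes well above background in both channels on all 4 arrays, 29 of 101 members were higher and 39 lower. Over all gene units these shares were 18.6% and 33.6%, so there the members were called above the background in both directions. The member means in that setting rested on 218 probes, 6.05% of the member probes against 38.6% of the slide. The shares thus compare means over unlike numbers of probes. Tested singly by limma, 25.7% of these probes were higher and 29.8% lower, against 23.2% and 30.7% of all probes tested. With the median over the probes of a gene in place of the mean, 0 members passed in either direction by limma (1 higher and 0 lower at an unadjusted p under 0.05), against 1.1% and 1.78% of all gene units, and with another background correction, normexp with an offset of 50, 1 rose and 1 fell (6 and 10 at an unadjusted p under 0.05), against 6.30% and 11.2% of all gene units. With the arrays centred on the probes well above background, a choice made after the data were seen, the median change over all gene units moved by 0.13 and 45 members were higher and 11 lower, so that 80.4% of the called members were higher against 54.3% in the main setting. That centring called 29.9% of all gene units higher and 21.7% lower, so the direction of the calls moved over the whole array.

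The largest rise was that of OR6X1, a class II receptor gene. Its gene mean over 34 probes was -1.67 and -1.81 in the unstimulated replicates and 0.03 and -0.04 after TGFβ1. Both conditions were thus far apart, and the stimulated values sat at the array median. The change was 1.73 (SE 0.10, limma adjusted p = 2.5e-05). OR52N1, a class I gene, moved in the same manner, from -1.36 and -1.29 to 0.10 and 0.12, a change of 1.44 (SE 0.09, limma adjusted p = 3.4e-05). Its neighbour in name and cluster, OR52N2, went from -1.39 and -1.49 to -0.34 and -0.45, a change of 1.04 (SE 0.09, limma adjusted p = 0.00015). It stayed below the array median in all 4 replicates. OR5D14, a class II gene, had -1.29 and -1.30 in unstimulated cells and 0.03 and -0.22 after TGFβ1, a change of 1.20 (SE 0.11, limma adjusted p = 0.00016).

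OR52D1, a class I gene, was the only one of the 5 largest rises in which the ratio went well above the array median. Its log2 ratios were -0.31 and -0.28 in unstimulated cells and 1.11 and 1.12 after TGFβ1. The change of 1.41 (SE 0.09, limma adjusted p = 3.4e-05) was far larger than the distance between replicates. It was also the member with the highest mean over all 4 replicates, 0.41. The other members with the highest means, OR5M9 (0.14), OR8K1 (0.12), OR4A16 (0.07) and OR5L2 (0.07), were barely above the array median. None of them passed the test. All probes of OR5L2 lay far upstream, at -6280 to -5239 bp from its annotated start.

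The largest falls were smaller. OR10A2 went from -0.15 and -0.28 to -1.37 and -0.99, a change of -0.96 (SE 0.14, limma adjusted p = 0.0011). OR9G4 went from 0.04 and -0.05 to -0.58 and -1.31, a change of -0.95 (SE 0.21, limma adjusted p = 0.0090). Its stimulated replicates lay further apart than those of any other gene named here. OR51L1 (change -0.73, limma adjusted p = 0.00078), OR52K2 (-0.73, 0.00090) and OR52W1 (-0.72, 0.00093) followed, each with SE 0.10 and with no overlap between the conditions. Of these 5 genes, 3 (OR51L1, OR52K2 and OR52W1) belong to class I. The lowest means over all 4 replicates were those of OR51S1 (-1.31), OR52N2 (-0.91), OR6X1 (-0.87), OR9G1 (-0.87) and OR8H3 (-0.82). OR51S1 was at or below -0.86 on every array and fell further, from -1.11 and -0.86 to -1.55 and -1.71 (limma adjusted p = 0.0031).

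**Figure D2:**
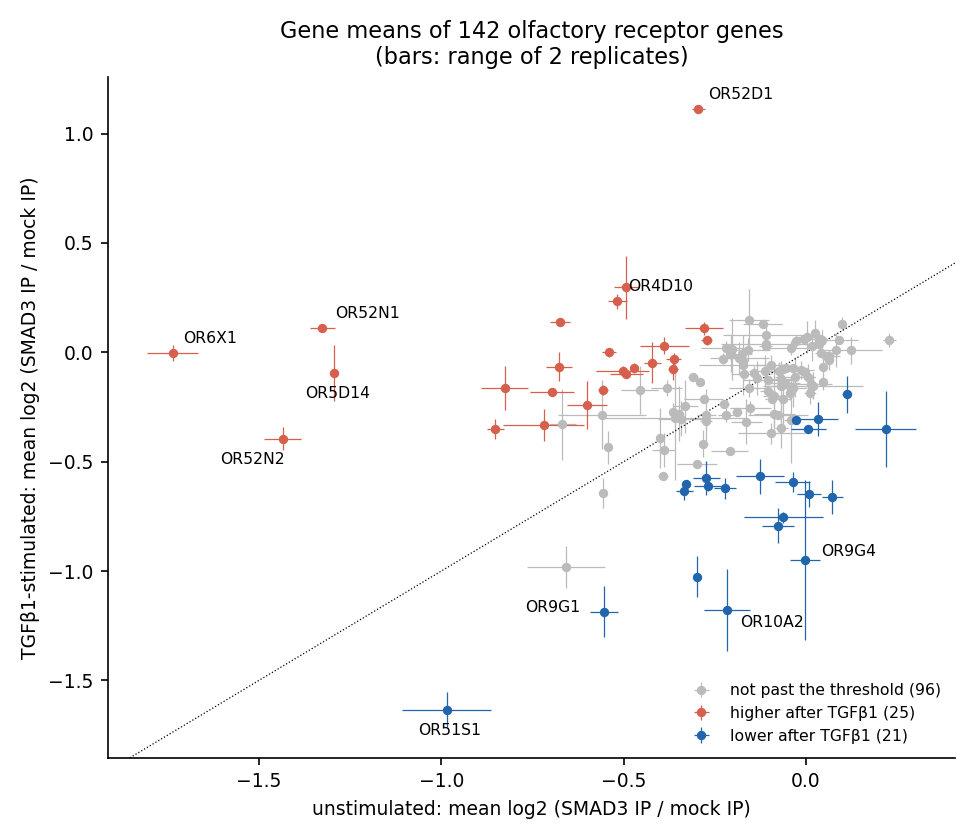
Mean log2 ratio of SMAD3 IP over mock IP in TGFβ1-stimulated cells (y axis) against unstimulated cells (x axis) for the 142 tested olfactory receptor genes, with bars for the range of 2 replicates and the dotted line for equal values. The 25 genes called higher (red) include OR6X1, OR52N1, OR5D14 and OR52N2, which start below -1.2 in unstimulated cells, and OR52D1, the only gene above 0.5 after TGFβ1; the 21 called lower are blue.

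The channel that moved was in most cases the mock IP. Each channel was expressed on the log2 scale relative to the median member probe of that channel and array, which is the level of probes without signal. In 24 of the 25 members that rose, the mock IP moved by more than the SMAD3 IP, and OR52D1 was the exception. In 19 of the 21 that fell, the mock IP moved by more, the exceptions being OR4S1 and OR9G1. The same counts were not made for the other gene units, so whether this is particular to the members was not tested. The median shift of the mock IP was -0.55 in the members that rose and 0.60 in those that fell, whereas that of the SMAD3 IP was -0.06 and 0.09. In OR6X1 the mock IP stood at 1.89 and 2.03 in unstimulated cells and at 0.24 and 0.45 after TGFβ1, and the SMAD3 IP at 0.21 and 0.21, then 0.20 and 0.37. In OR52D1 the mock IP was 0.55 and 0.64, then 0.40 and 0.58, and the SMAD3 IP went from 0.22 and 0.34 to 1.43 and 1.67.

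Part of the signal lay in runs of neighbouring probes. A run was defined, after the values had been seen, as 3 or more successive member probes at most 500 bp apart whose log2 ratio was beyond 2 with the same sign in both replicates of a condition. There were 21 runs in 20 genes, 269 to 1762 bp long with a median of 441 bp. Of the 46 members called higher or lower, 18 held a run, and OR10A2, OR9G4 and OR52W1 among the largest falls held none. In 13 runs the mock IP was brighter in unstimulated cells, in 7 it was brighter after TGFβ1, and in 1, that of OR52D1, the SMAD3 IP was brighter after TGFβ1. Per 1000 probes this was 3.61, 1.94 and 0.278, and over all probes of the slide it was 7.67, 5.91 and 0.841. The slide also held 1.61 runs per 1000 probes with the SMAD3 IP brighter in unstimulated cells, and the members held 0 among 3603 probes. In only 3 of the 21 runs was the ratio beyond 1 the same way in both replicates of the other condition. 2 of these entries are the same 3 probes of OR52M1, from 1376 to 1096 bp upstream of its start, with mean log2 ratios of -2.99 and -3.18 in unstimulated cells and -3.47 and -4.83 after TGFβ1.

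The longest run lay across the start of OR6X1, from 235 bp upstream to 1467 bp downstream. In both unstimulated replicates the mock IP was well above background at all 10 of its probes, with median processed intensities of 2300 and 2146. After TGFβ1 the medians were 44.8 and 39.4, and 2 of the 10 probes were well above background on each array. The SMAD3 IP was dim throughout, with medians of 68.3 and 54.2 in unstimulated cells and 81.5 and 65.2 after TGFβ1. OR6A2, a receptor for aldehydes, showed a run of 4 probes from 175 bp upstream to 332 bp downstream of its start. Its mock IP medians were 16687 and 13642 in unstimulated cells and 54.6 and 38.6 after TGFβ1. The run would reach into the upstream window of OR6A2 shown above if the annotated starts coincide, which was not tested. OR52N2 had a run of 6 probes 862 to 1686 bp upstream, with mock IP medians of 3691 and 3445 in unstimulated cells and 50.6 and 41.6 after TGFβ1.

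The opposite pattern was seen at OR52K2, OR51S1 and OR5R1, which is now named OR8U3. At OR52K2, 4 probes from 4843 to 5234 bp upstream had mock IP medians of 461 and 540 in unstimulated cells and 27328 and 31763 after TGFβ1. At OR51S1, 3 probes from 343 to 560 bp downstream had 96.7 and 94.7, then 5840 and 59353. A further 2 probes of OR51S1, at 678 and 866 bp, were brightest in the mock IP of unstimulated cells, so that adjacent stretches of the same gene were high in different conditions. At OR5R1, 3 probes from 2080 to 2366 bp downstream had 44.6 and 37.9, then 8178 and 12436. These intensities are processed signals of the scanner software and were not scaled between arrays.

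**Figure D3:**
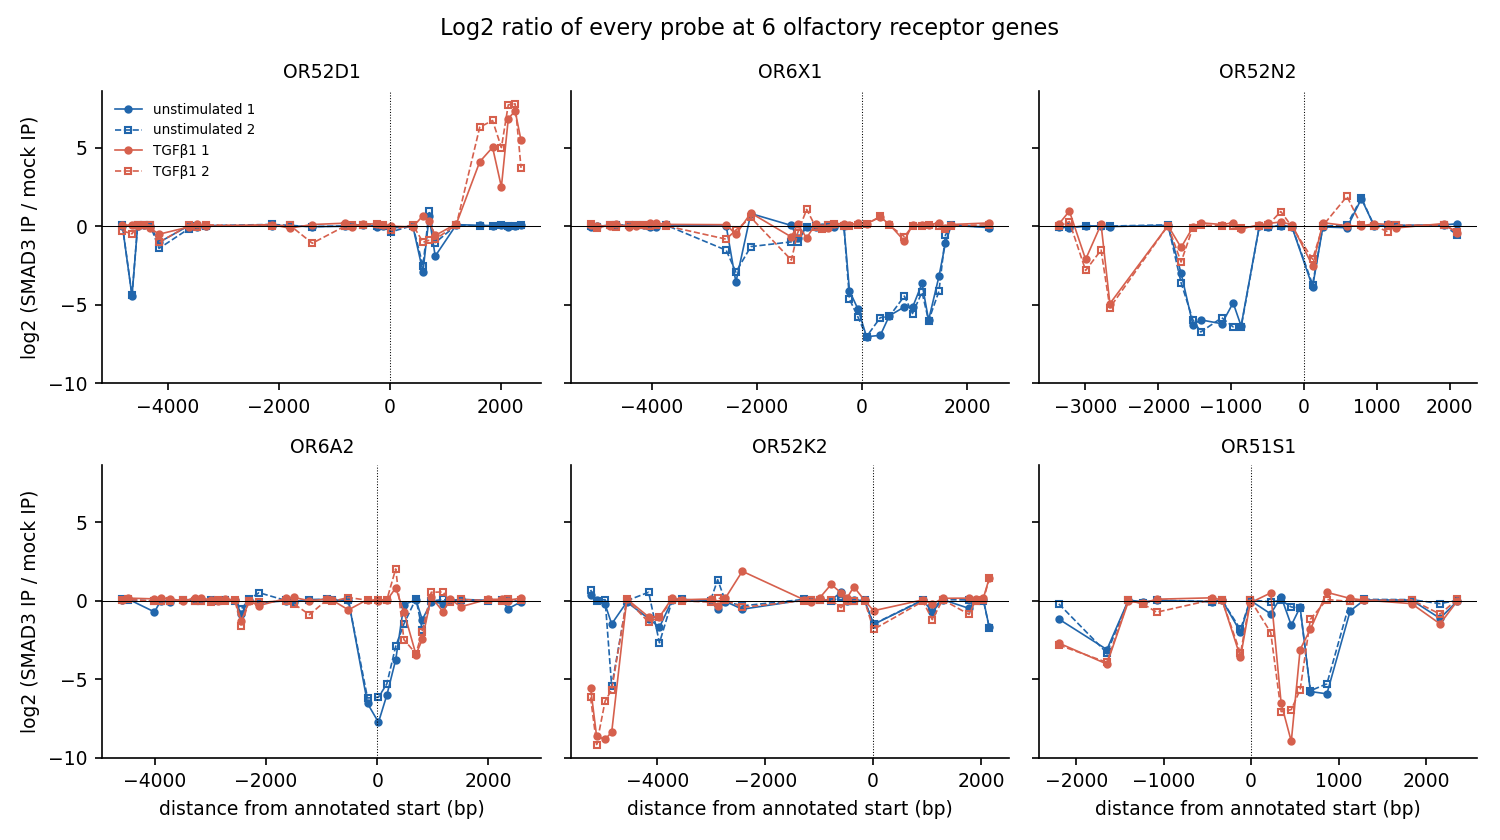
Log2 ratio of SMAD3 IP over mock IP (y axis) for every probe by its distance from the annotated start in bp (x axis) at 6 member genes, with unstimulated replicates in blue and TGFβ1 replicates in red. Over the 10 probes of the OR6X1 run both unstimulated replicates are low, and over the 6 probes of the OR52D1 run both TGFβ1 replicates are high, with the means of the other condition near 0 in these 2 runs; some probes, as at 1650 and 122 bp upstream of OR51S1, are low in both conditions.

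**Figure D4:**
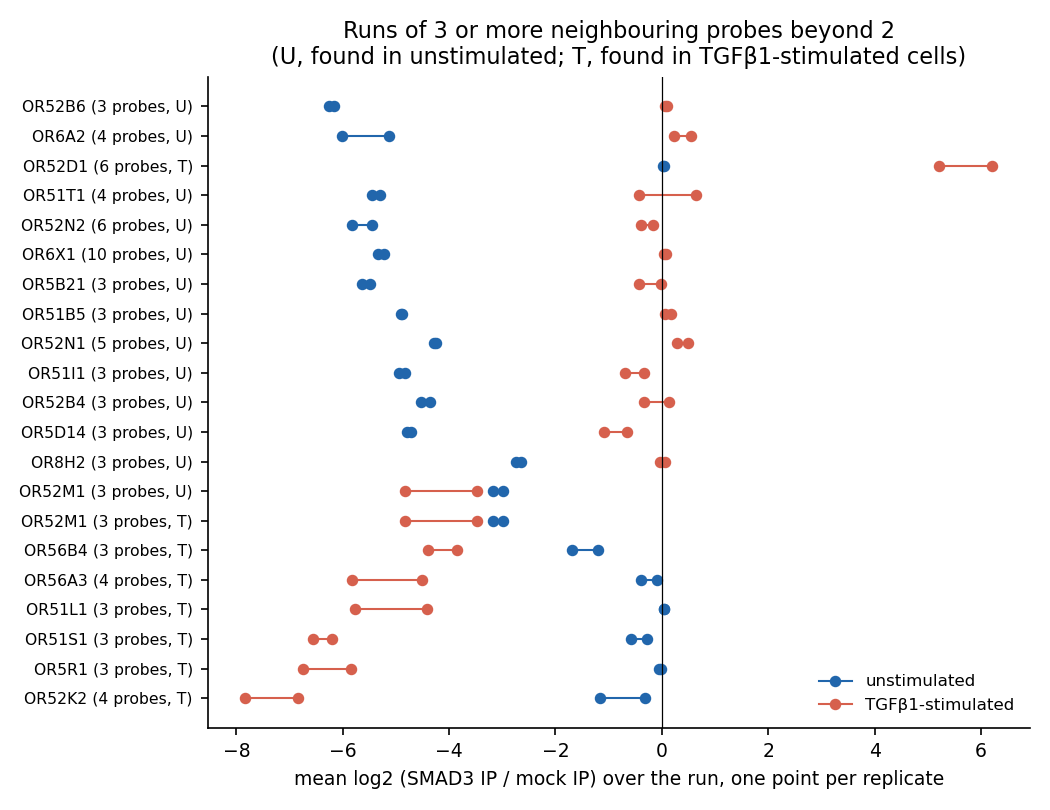
Mean log2 ratio over each of the 21 runs of neighbouring probes (x axis), one row per run and one point per replicate, unstimulated in blue and TGFβ1-stimulated in red. The run of OR52D1 is the only one on the positive side, at 5.22 and 6.22 after TGFβ1, and the 2 rows of OR52M1 show the same 3 probes, which were negative in both conditions.

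Occupancy was next called with a peak model. The profile of log2 ratios along a gene was fitted with the shape that a single binding event would give for DNA fragments of 200 to 700 bp, and a gene was called bound when the permutation p was under 0.01 in both replicates and the joint peak height (fold enrichment) was over 1.5. In unstimulated cells 0 of 142 members were bound, against 3.44% of all gene units, and OR4A16 alone had a permutation p under 0.05 in both replicates (0.047 and 0.032, height 12.3). After TGFβ1, 1 member was bound (0.704%), against 2.75% of all gene units. This was OR52D1, with a peak height of 90.5 in replicate 1, 197 in replicate 2 and 128 in the joint fit. The permutation p was 5.9e-05 in both replicates, which is the smallest value the shuffles can give. The centre was nearest to the probe 2135 bp downstream of the start. This is farther than a receptor coding exon is long, but whether that exon opens at the annotated start was not checked. No other gene was annotated to the 6 probes of the run. Their SMAD3 IP medians were 64.5 and 52.2 in unstimulated cells and 3071 and 5946 after TGFβ1, and all 6 probes were well above background in both stimulated replicates and in neither unstimulated replicate. The mock IP medians stayed between 35.0 and 47.3, and its probes were not well above background, except 1 in stimulated replicate 2. The peak heights of OR52D1 thus rest on a control channel at background and have no defined size. The call was lost with normexp background correction and with p-values taken from sign-reversed ratios. With the filter on dim probes OR52D1 had 3 probes left and could not be tested. With probes limited to 2000 bp upstream and 800 bp downstream of the start, OR52D1 no longer passed and OR4D10 was bound in its place.

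The same model was run on the reversed ratio, mock IP over SMAD3 IP, as a control for the direction. It called 8 members in unstimulated cells (5.63%) and 4 after TGFβ1 (2.82%), against 10.1% and 9.73% of all gene units. The 8 in unstimulated cells were OR51T1, OR52B6, OR52N1, OR52N2, OR5B21, OR5D14, OR6A2 and OR6X1, and the 4 after TGFβ1 were OR51S1, OR52K2, OR5R1 and OR9G1. No member was called in both conditions, which says little with so few called. The overlap over all gene units was not counted. The joint heights of the reversed peaks ran from 13.5 (OR5B21) to 332 (OR6X1) in unstimulated cells and from 24.7 (OR51S1) to 279 (OR52K2) after TGFβ1. Peaks of the mock IP over the SMAD3 IP were thus more numerous than peaks of the SMAD3 IP, among the members as among all gene units. The height of OR52D1 lay within their range. Heights over a dim channel, as the SMAD3 IP at OR6X1, have no defined size.

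Rises and falls were found in both receptor classes. Of 45 class I genes 11 rose (24.4%) and 7 fell (15.6%), with a median change of 0.06. Of 97 class II genes 14 rose (14.4%) and 14 fell (14.4%), with a median change of -0.04. The difference between the classes was not tested. By family, 5 of 21 OR52 genes rose and 3 fell, 4 of 19 OR51 genes rose and 2 fell, and in the small OR56 family 2 of 5 rose and 2 fell. Among class II families, OR4 had 4 rises and 2 falls in 18 genes, OR5 had 4 and 2 in 30, OR8 had 2 and 2 in 19 and OR10 had 2 and 2 in 12. OR9 had 0 rises and 3 falls in 6 genes, namely OR9G1, OR9G4 and OR9Q2. No family moved as a whole.

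**Figure D5:**
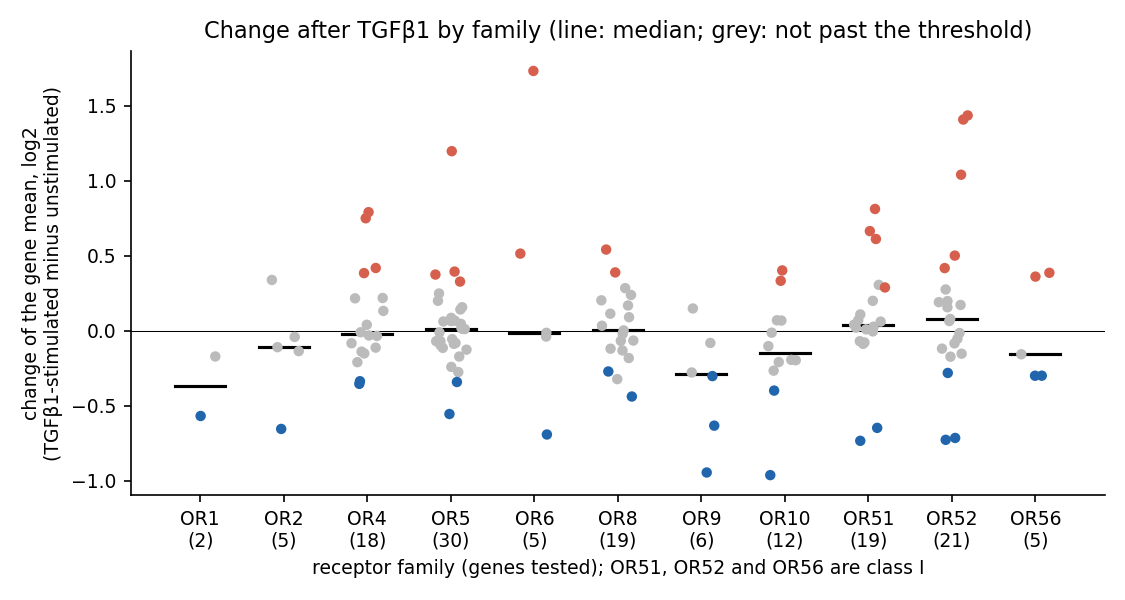
Change of the gene mean after TGFβ1 on the log2 scale (y axis) for each tested member by receptor family (x axis, number of genes in brackets), with the family median as a line; red genes were called higher, blue genes lower and grey genes did not pass. Rises and falls occur within the same families, with OR6X1 at 1.73 in family 6 and OR10A2 at -0.96 in family 10 as the extremes.

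Neighbouring genes sharing probes received different calls. The largest cluster, with 57 members over 3578 kb and holding all 45 class I genes, had 13 rises and 9 falls. OR51I1 and OR51I2 shared 28 probes, and OR51B5 and OR51B6 shared 26. OR51I1 and OR51B5 rose, and OR51I2 and OR51B6 did not pass. OR1S1 and OR1S2 shared 6 probes, and OR1S1 fell while OR1S2 did not pass. In all, 470 member probes lay nearer to another annotated start than to that of their member. Whether such a start belonged to another gene was not counted. Of the member probes, 1.11% were also annotated to a gene that is no olfactory receptor on this chromosome.

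Members with a described ligand or with expression outside the nose were followed as a list of 8. Of these, OR6A2 rose (from -0.76 and -0.64 to -0.18 and -0.18, change 0.51, SE 0.09, limma adjusted p = 0.0031). OR10G4, a receptor for guaiacol, fell (from -0.19 and -0.25 to -0.67 and -0.57, change -0.40, SE 0.09, limma adjusted p = 0.0093). All probes of OR10G4 lay upstream, at -5442 to -849 bp from its annotated start. The other 6 of the list did not pass. OR51E1 and OR51E2, which are expressed in prostate, had mean log2 ratios of -0.36 ± 0.28 and -0.23 ± 0.01 (SD, n = 2) in unstimulated cells and -0.30 ± 0.40 and -0.03 ± 0.03 after TGFβ1. OR51E1 varied more between replicates than between conditions. All its probes lay upstream, at -9983 to -5959 bp from the annotated start, so its level does not describe the sequence at the start. OR5AN1, a musk receptor, had -0.23 ± 0.02 and -0.24 ± 0.01, OR2AT4, described in keratinocytes, -0.09 ± 0.04 and -0.20 ± 0.21, OR5A1, the beta-ionone receptor, -0.09 ± 0.13 and -0.37 ± 0.07, and OR2AG1 -0.67 ± 0.05 and -0.33 ± 0.23.

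Of the 4 members beside the beta-globin genes, OR52A1 fell, from -0.03 and -0.03 to -0.32 and -0.30 (change -0.28, SE 0.09, limma adjusted p = 0.029). OR51V1, OR51B2 and OR51B4 did not pass, with changes of 0.02, -0.0047 and -0.08. A set of 8 members stands in the study's lists of genes significantly bound by SMAD3. These lists were chosen with data of this experiment and are not independent evidence. The study asked for binding in most of its array replicates, whereas here both replicates had to pass, so the calls follow unlike rules. Of these, OR4D10 rose (from -0.54 and -0.49 to 0.27 and 0.20, change 0.75, SE 0.09, limma adjusted p = 0.00048), and OR1S1 (change -0.57) and OR4D9 (-0.35) fell. OR4A16, OR8H3, OR1S2, OR5I1 and OR10W1 did not pass, and none of the 8 was called bound in either condition in the main setting. OR4D10 had a joint peak height of 20.7 after TGFβ1, with a permutation p of 0.035 and 0.023 in the replicates. In unstimulated cells its height was 1.09, with a permutation p of 0.99 and 0.98. The study listed unstimulated and stimulated cells apart, and the condition in which it listed each gene is not set beside these values.

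Single probes were tested where both channels were well above background on all 4 arrays. Of the 218 such member probes, in 101 genes, 56 were higher after TGFβ1 (25.7%) and 65 lower (29.8%) by limma with an adjusted p under 0.05, against 23.2% and 30.7% of all 160921 probes tested. The median change was -0.29, and -0.18 over all probes tested. In 12 genes at least 1 probe rose and another fell. The largest rise was that of a probe 1683 bp upstream of OR51T1, whose log2 ratio went from -5.97 and -6.22 to 0.25 and 4.39 (limma adjusted p = 0.0067). Its mock IP intensity was 25862 and 20358 in unstimulated cells and 316 and 72.1 after TGFβ1. At a probe 1917 bp downstream of OR51F1 the SMAD3 IP went from 172 and 72.1 to 66535 and 66759, and its log2 ratio went from 1.07 and -0.51 to 7.83 and 6.24 (limma adjusted p = 0.0021). A probe 775 bp downstream of OR56A1 was the third of the largest rises, from -5.72 and -5.06 to 0.20 and 1.65.

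Among the same 218 probes, the largest fall was that of a probe 89 bp downstream of the start of OR52B4, from 2.19 and 2.52 to -5.45 and -4.01 (limma adjusted p = 0.00070). Its mock IP went from 160 and 168 to 24724 and 37705. Probes 459 bp downstream of OR51S1 and 88 bp downstream of OR52A1 fell from -1.56 and -0.39 to -8.95 and -6.93 and from 0.82 and 0.17 to -6.29 and -5.55. Among them, and apart from the OR51F1 probe, the highest means over all 4 replicates were at OR4S1, 1324 bp upstream, with 4.63 and 4.66 in unstimulated cells and 0.38 and -0.54 after TGFβ1, and at OR52W1, 34 bp downstream, with 3.79 and 3.43, then 0.23 and 0.61. At OR52W1 the SMAD3 IP held 2409 and 2611 in unstimulated cells and 1645 and 2324 after TGFβ1, while the mock IP went from 117 and 164 to 850 and 945.

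A list of 12 genes of olfactory signalling and receptor choice was read beside the receptors. By limma with an adjusted p under 0.05, 1 rose and 5 fell, with a median change of -0.12. Over all gene units 20.9% rose and 28.7% fell, and 2.75% were called bound after TGFβ1. A list of 12 is too short to be set apart from these shares. OMP, which encodes olfactory marker protein of mature sensory neurons and also lies on chromosome 11, rose from -1.40 and -1.41 to 1.87 and 2.48 (change 3.58, SE 0.18, limma adjusted p = 2.0e-05), and was called bound after TGFβ1 with a peak height of 181. This change was larger than that of any of the 142 receptor genes. ADCY3, the olfactory adenylyl cyclase, was also called bound after TGFβ1 (height 332), although its gene mean did not pass. The genes that fell were REEP1 (change -0.71), EBF1 (-0.58), CNGB1 (-0.56), RTP1 (-0.47) and CNGA2 (-0.28). They encode a receptor transport factor, a transcription factor of sensory neurons, a subunit of the olfactory cyclic nucleotide-gated channel, a receptor transport protein and another channel subunit, in that order.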

How the data were processed

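Agilent 2-colour promoter arrays compared SMAD3 IP (Cy5) with mock IP (Cy3). The deposited scanner files hold processed intensity values of both dyes, background-subtracted and dye-normalised by Agilent Feature Extraction 9.5.1.1, and the deposited series matrix holds the log2 ratio of the same signals. The main measure was log2 (red/green), centred on the median of each array. Probes marked as outliers by the scanner software were left out (4 member probes). Gene means over all probes (at least 4) and single probes well above background in both channels on all 4 arrays were fitted with limma 3.58.1 in R 4.3.3, with Benjamini-Hochberg adjustment over all gene units or probes. Peaks were fitted on a 25 bp grid with numba 0.67.0, against 10 shuffles of the log ratios over all genes. The fits and the peak model were tested on simulated data. The rule for the members used no measured value, but the rule and the gene lists were set with earlier results of these data known. Named were the bound members, the 5 largest rises and falls past the threshold with conditions apart, the 5 highest and lowest means, the listed ligand, beta-globin and study genes, and the 3 largest probe changes and highest probe means. The fit assumed the Cy5 label of the SMAD3 IP given in the labels. The number of arrays limits the precision. Probe sequences were not used here, so motifs were counted in RefSeq promoters, and no array coordinates are given because the files do not name their build. Alternatives were other background correction, normalisation, centring, filter, gene summary, probe windows, peak settings, a replicate block and leaving out each replicate.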

Additional observations from a re-analysis of the deposited data

How the results depend on the processing

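Of 13 settings tried on the 10 named changes, 8 kept the direction and the threshold of all 10 (loess, the series matrix, the replicate block, each replicate left out, and centring on bright probes). Leaving out each replicate gave 17 to 26 members higher and 13 to 17 lower, 42 to 51 probes higher and 57 to 59 lower, and 1 member bound after TGFβ1. In the limma fits the single replicate then left in a condition was assumed to vary like the other condition, from which the spread alone came. Without TGFβ1-stimulated replicate 2 only 13 members were lower, against 21. Some of the 8 settings could hardly differ from the main one. The series matrix held the same ratios, and the replicate block left the size of every change as it was. Centring on bright probes shifted all 10 changes alike. The median over the probes of a gene left 0 members in either direction. It turned the change of OR10A2 to 0.041, OR9G4 to 0.011, OR51L1 to 0.032 and OR52K2 to 0.031. Normexp left 1 member higher and 1 lower, and 2 probes higher and 9 lower. With bright probes alone, 101 members were tested, of which 29 were higher and 39 lower. These shares were above the 18.6% and 33.6% of all gene units, whereas in the main setting they were below. The member means there rested on only 218 probes, so the shares compare means over unlike numbers of probes. Probes within 250 bp of the joint peak centre gave 14 higher and 8 lower. There OR52N2 was at -0.24, OR10A2 at 0.016, OR9G4 at 0.15 and OR52K2 at 0.076. OR6X1 (0.097), OR52N1 (0.073), OR5D14 (0.31) and OR51L1 (-1.28) kept their direction but did not pass, while OR52D1 and OR52W1 passed. With 2000 bp upstream to 800 bp downstream OR52D1 (0.12), OR9G4 (-0.21) and OR52K2 (0.10) did not pass. Centring on bright probes, added after the data were seen, gave 45 higher and 11 lower. All 3603 probes without the filter gave 198 higher and 157 lower (10.5% and 12.4% of all probes). The stimulated bound count was 0 with normexp and with p-values from sign-reversed ratios. It was also 0 with bright probes alone, where 17 members were tested and OR52D1, with 3 such probes, was not. The unstimulated count was 0 in every setting. The cause was not tested. With the replicate number as a block, 31 members were higher and 25 lower, and 54 probes higher and 64 lower. Same-numbered replicates had correlated deviations (r = 0.17 across 16954 gene units), but with 2 pairs the numbers were not taken as pairing. Dropping probes open to cross-hybridisation was not run, since no probe sequences were used. Most member probes lay at background, which limits every gene mean.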
